A study of Arabidopsis thaliana with 12 samples.

Results

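AT4G20820, AT4G20830 and AT4G20860 are berberine bridge enzyme-like genes of Arabidopsis thaliana that lie close together on chromosome 4. They were chosen by locus code, with earlier results of these data known. All 3 were measured, each through 1 probe set that the array annotation assigns to that gene alone (254430_at, 254432_at and 254447_at), among 13286 genes with such a probe set. Roots were taken from Col-0 seedlings, 7 days old, after 3 h with chitin oligomers, with cellobiose, with oligogalacturonides (OGs), or with no elicitor as the control. Each of the 4 groups had 3 biological replicates with 1 Affymetrix ATH1 array each, so 12 arrays were compared. All groups shared the ecotype, age, growth on a nylon mesh and harvest time. Neither elicitor doses nor the seedlings per RNA sample could be given, although the labels describe mesh discs sown with many seeds, so a sample stands for a pool of root systems.

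Berberine bridge enzyme-like proteins are secreted flavin enzymes. Those that act as oxidases pass electrons from their substrate to oxygen and so release hydrogen peroxide. AT4G20830 encodes OGOX1, which oxidises the reducing end of OGs, the pectin fragments that plants sense as a sign of wall damage; the oxidised fragments are weaker elicitors and are harder for fungal enzymes to degrade. AT4G20860 encodes CELLOX, which does the same to cellodextrins, the short chains that come from cellulose and of which cellobiose is the smallest. AT4G20820 belongs to the same family, and no substrate is assigned to it here. Chitin oligomers come from fungal walls.

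The 2 fragment oxidases rose after chitin, AT4G20830 3.99-fold and AT4G20860 2.14-fold, while AT4G20820 fell. AT4G20830 also rose after cellobiose and after OGs, 1.85-fold and 2.07-fold, and AT4G20860 did not pass the test with either. Their levels on every array are shown in the plot of values by group. All values below are log2 probe set intensities as deposited, and changes are differences on that scale. A change was called at a Benjamini-Hochberg adjusted p under 0.05 over all 22746 probe sets tested with limma, with the replicate number as a block.

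**Figure D1:**
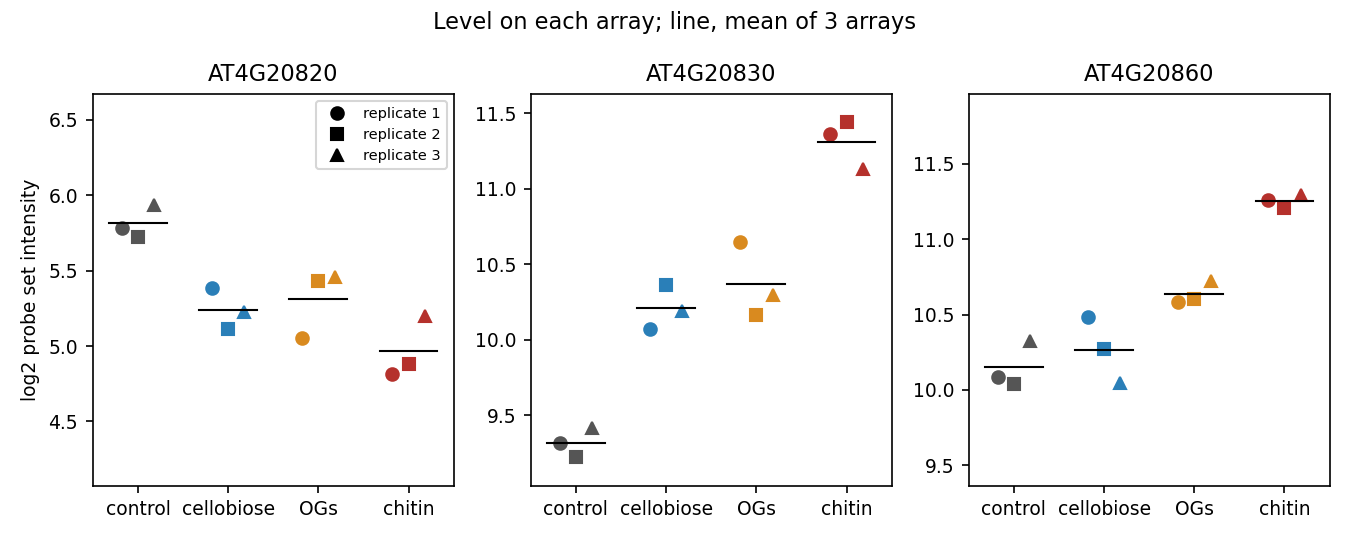
Log2 probe set intensity of AT4G20820, AT4G20830 and AT4G20860 (vertical axis, the same span in each panel) on the 12 arrays, by group; symbols mark the replicate number and the lines are means of 3 arrays. For AT4G20830 the control arrays lie between 9.22 and 9.41 and the chitin arrays between 11.13 and 11.44; for AT4G20820 the control arrays are the highest.

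By limma's moderated F test over the 4 groups, all 3 members changed, at adjusted p = 3.74e-05 for AT4G20830, 0.000496 for AT4G20860 and 0.00575 for AT4G20820. Of all probe sets tested, 9.76 percent were called by that test. The members ranked 137, 321 and 758 of 22746 by their p.

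AT4G20830 (OGOX1) stood at 9.32, 9.22 and 9.41 on control replicates 1, 2 and 3, brighter than 86.8 to 88.5 percent of probe sets on those arrays. On the chitin arrays it read 11.36, 11.44 and 11.13. Every chitin array lay above every control array, by at least 1.72. The rise was 1.99 ± 0.13 (SE, n = 3 per group, adjusted p = 5.82e-06), or 3.99-fold with a 95 percent interval of 3.24 to 4.90. It was the increase of rank 115 among the 22746 probe sets.

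On the cellobiose arrays AT4G20830 read 10.07, 10.36 and 10.19, and on the OGs arrays 10.64, 10.17 and 10.30. Both groups lay wholly above the control and wholly below chitin, and they overlapped each other. The rise over the control was 0.89 ± 0.13 (SE, adjusted p = 0.00715) after cellobiose, or 1.85-fold, and 1.05 ± 0.13 (SE, adjusted p = 0.00318) after OGs, or 2.07-fold. These were the increases of rank 131 and rank 100. The call after cellobiose was lost without cellobiose replicate 3 (adjusted p = 0.0582), and the call after OGs held with each array of the 2 groups left out in turn.

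The order of AT4G20830 was therefore control, then cellobiose and OGs, then chitin. Chitin exceeded cellobiose by 1.11 ± 0.13 (SE, adjusted p = 0.000767), and OGs changed by -0.94 ± 0.13 against chitin (SE, adjusted p = 0.00269). OGs and cellobiose differed by 0.16, with a 95 percent interval of -0.14 to 0.46 (adjusted p = 0.691), so these neighbours in the order were not told apart, and OGs were higher in 2 of 3 replicate numbers. Without OGs replicate 1 this difference was 0.0099, without cellobiose replicate 1 it was 0.039, and it reached 0.30 without OGs replicate 2 and 0.27 without cellobiose replicate 2.

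AT4G20860 (CELLOX) was bright in every group, above at least 92.4 percent of probe sets on each array. It read 10.09, 10.04 and 10.32 on the control arrays and 11.26, 11.20 and 11.29 on the chitin arrays, which were the closest replicates of any group for this gene. The groups did not overlap. The rise after chitin was 1.10 ± 0.12 (SE, n = 3 per group, adjusted p = 0.000142), or 2.14-fold with an interval of 1.79 to 2.56, and rank 302 among increases.

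On the cellobiose arrays AT4G20860 read 10.49, 10.27 and 10.04, a range that covered most of the control range. Cellobiose and control differed by 0.11 ± 0.12 (SE, adjusted p = 0.680), with an interval of -0.14 to 0.37, and the difference was positive in 2 of 3 replicate numbers. Without cellobiose replicate 1 it was -0.013. The upper end of the interval with all arrays was a rise of 1.29-fold.

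On the OGs arrays AT4G20860 read 10.58, 10.60 and 10.72, every one above every control array. The difference from the control was 0.48 ± 0.12 (SE, adjusted p = 0.0570), or 1.40-fold with an interval of 1.17 to 1.67, and was positive in 3 of 3 replicate numbers. With all arrays it missed the threshold. It passed without control replicate 3 (adjusted p = 0.0441) and without the replicate block (0.0344). Quantile normalization (0.0487) and an intensity trend in the prior variance (0.0338) also took it past the threshold. It missed without each of the 5 other arrays of the 2 groups (0.103 to 0.182). Median centring (0.0660), only these 2 groups fitted (0.0698) and dropping probe sets averaging under log2 5 (0.0514) left it short as well.

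Chitin stood above both plant wall fragments for AT4G20860. It exceeded cellobiose by 0.98 ± 0.12 (SE, adjusted p = 0.000598), and the OGs arrays changed by -0.62 ± 0.12 against chitin (SE, adjusted p = 0.0141). The latter call was lost without OGs replicate 1 (adjusted p = 0.0727), OGs replicate 2 (0.0600), chitin replicate 1 (0.0511) or chitin replicate 2 (0.0620), with changes of -0.66 to -0.56 over all 6 arrays left out. OGs exceeded cellobiose by 0.37 (interval 0.11 to 0.63, adjusted p = 0.208), without overlap between the arrays of these groups, and by 0.21 without cellobiose replicate 3.

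AT4G20820 was the dim member, brighter than 33.3 to 45.5 percent of probe sets on an array. It read 5.79, 5.72 and 5.93 on the control arrays, 4.82, 4.88 and 5.20 after chitin, 5.38, 5.11 and 5.23 after cellobiose, and 5.05, 5.43 and 5.46 after OGs. The control arrays were the 3 highest of the 12, and the elicitor groups overlapped one another. It fell by 0.85 ± 0.12 after chitin (SE, n = 3 per group, adjusted p = 0.00102). With values under log2 5 raised to 5, a level near background, the control was at least 1.68-fold higher than chitin.

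After cellobiose AT4G20820 fell by 0.57 ± 0.12 (SE, adjusted p = 0.0360). The call was lost without any of control replicates 1, 2 and 3 and cellobiose replicates 2 and 3 (adjusted p = 0.0665 to 0.196), and held without cellobiose replicate 1 (0.0165). After OGs the difference was -0.50 ± 0.12 (SE, adjusted p = 0.0560), negative in 3 of 3 replicate numbers and without overlap, and it did not pass. Between elicitors, chitin and cellobiose differed by -0.28 (interval -0.54 to -0.01, adjusted p = 0.238), OGs and chitin by 0.35 (interval 0.09 to 0.61, adjusted p = 0.160), and OGs and cellobiose by 0.07 (interval -0.19 to 0.33, adjusted p = 0.862). The value for chitin and cellobiose was -0.13 without cellobiose replicate 1, and that for OGs and cellobiose turned to -0.036 without OGs replicate 2 and to -0.017 without cellobiose replicate 3.

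Counted over the members, 2 rose and 1 fell after chitin, against 5.09 percent of all probe sets called higher and 5.94 percent called lower. The 1157 higher and 1350 lower calls behind these shares became 1295 and 1108 with the arrays centred on their medians, and 1300 and 1157 after quantile normalization. After cellobiose 1 rose and 1 fell, against 1.54 and 0.725 percent, where median centring gave 292 probe sets higher and 237 lower in place of 351 and 165. After OGs 1 rose and 0 fell, against 1.61 and 1.04 percent, and 3 of 3 had an unadjusted p under 0.05, against 16.6 percent of all probe sets. The groups did not overlap for 3 of 3 members after chitin (25.7 percent of all probe sets), 2 of 3 after cellobiose (23 percent) and 3 of 3 after OGs (18 percent). These 3 comparisons share the control arrays, so they are not independent of one another.

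In the direct comparisons 2 members were higher after chitin than after cellobiose, against 2.93 percent of probe sets, a share drawn from 667 higher and 572 lower calls that became 846 and 316 after median centring. The same 2 were lower after OGs than after chitin, against 2.15 percent. None was called between OGs and cellobiose by limma, where 1 member, AT4G20860, had an unadjusted p under 0.05, against 12 percent of all probe sets, and 1.31 percent were called. Groups did not overlap for 2, 2 and 1 members in these comparisons, against 29.3, 21.4 and 19.1 percent of all probe sets.

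**Figure D2:**
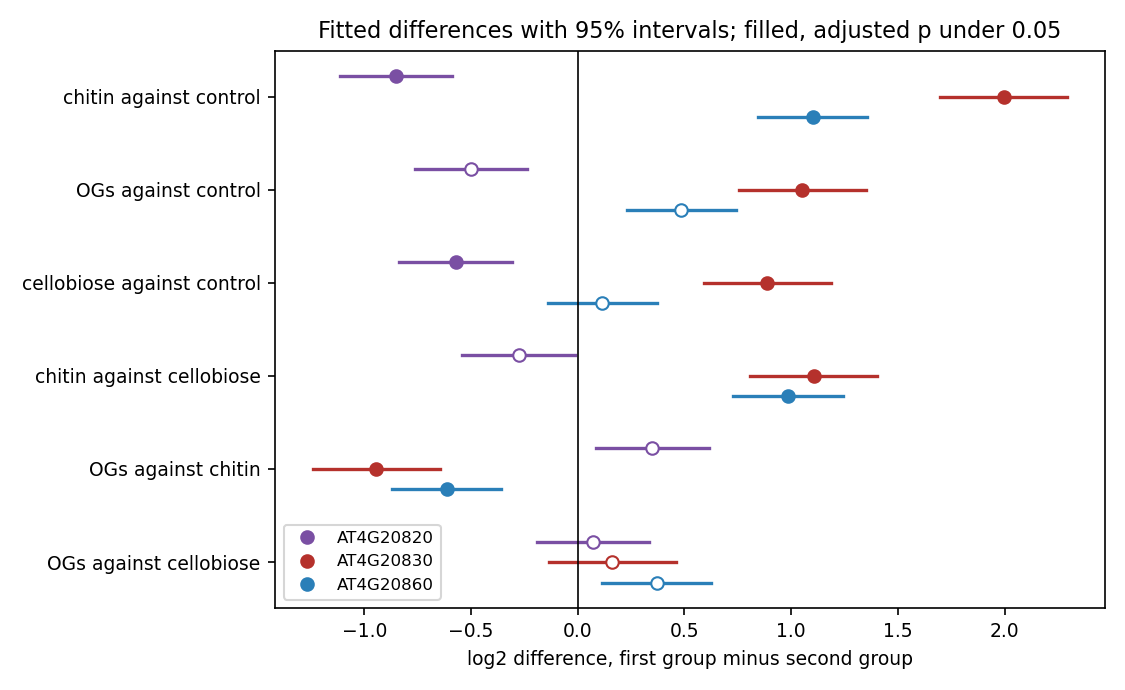
Fitted log2 difference between groups (horizontal axis, first group minus second) with 95 percent intervals for the 3 genes in the 6 comparisons; filled points passed an adjusted p under 0.05. The 2 oxidases with a known wall fragment substrate lie to the right of 0 for chitin against control, at 1.99 and 1.10, and AT4G20820 to the left, at -0.85.

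Whether 2 members differed in their response was tested on the difference of their log2 values per array, with group labels permuted within each replicate number (exact permutation test over 13824 arrangements, Benjamini-Hochberg adjusted over the 3 pairs). The responses of AT4G20860 and AT4G20830 differed (exact p = 0.0486, adjusted p = 0.0486). The change of AT4G20860 was smaller by 0.88, 1.06 and 0.75 in replicates 1, 2 and 3 of chitin. It was smaller by 0.35, 0.91 and 1.06 in those of cellobiose, and by 0.83, 0.38 and 0.49 in those of OGs. It was thus the lesser one in all 9 pairs of arrays. These 9 differences share the 3 control arrays, so they are not 9 independent agreements. The means of these differences were -0.90 ± 0.15, -0.77 ± 0.37 and -0.57 ± 0.24 (SD, n = 3).

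AT4G20820 differed in response from both others, with an exact p = 0.00694 (adjusted p = 0.0104) against AT4G20830 and an exact p = 0.00174 (adjusted p = 0.00521) against AT4G20860, the latter being the smallest p these permutations can give. The change of AT4G20830 exceeded that of AT4G20820 by 2.85 ± 0.34 after chitin, 1.46 ± 0.30 after cellobiose and 1.55 ± 0.44 after OGs (SD, n = 3). For AT4G20860 the excess was 1.95 ± 0.23, 0.69 ± 0.23 and 0.98 ± 0.21. With 1 replicate number left out the test cannot give a p under 0.0417 for a pair, and adjusted values were then 0.0625 to 0.292.

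Array medians, the actin control probe sets and the root marker overlapped between control and elicitor arrays, whereas shoot genes did not. Of 14 shoot photosynthesis markers 3 were measured: RCA, the activase of Rubisco, PRK, a Calvin cycle kinase, and LHCB4.2, an antenna protein. Their mean ran from 8.92 to 9.69 on the control arrays, 6.95 to 8.23 after cellobiose, 7.00 to 8.32 after OGs and 6.22 to 7.49 after chitin, and the dimmest of them, PRK, read 4.73 on its lowest array. Like AT4G20820, they were highest on all 3 control arrays, as the plot of these genes shows; their part in the result for AT4G20820 was not tested. In RNA from whole roots, fewer cells of a type and less RNA per cell cannot be told apart. The root hair expansin gene EXPA7, the 1 of 11 root markers measured, lay between 9.10 and 9.65 on all arrays.

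**Figure D3:**
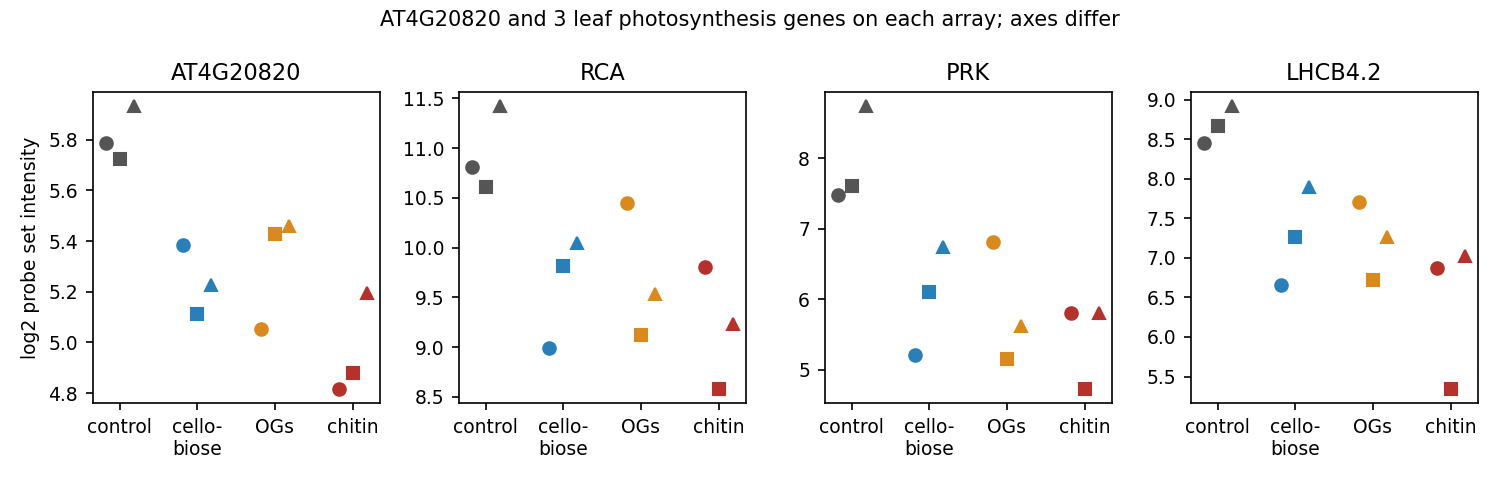
Log2 probe set intensity of AT4G20820 and of RCA, PRK and LHCB4.2 on each of the 12 arrays, by group, with symbols for the replicate number; the vertical axes differ between panels. In all 4 panels each control array lies above each elicitor array.

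Polyadenylated spike-in transcripts averaged 5.85 to 6.01 on the control arrays, 5.97 on OGs replicate 3 and 5.63 to 5.79 on the other elicitor arrays. OGs replicate 3 also stood apart in the difference between 3′ and 5′ GAPDH control probe sets, at 1.46 against 0.357 to 0.861 on the other 11 arrays. Without it the changes after OGs were 1.07 for AT4G20830 (adjusted p = 0.0166), 0.44 for AT4G20860 (0.168) and -0.52 for AT4G20820 (0.128), and against chitin they were -0.92 (0.0207), -0.66 (0.0446) and 0.33 (0.334). Each stayed on the same side of the threshold as with all arrays.

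Within the family, 22 of 27 listed genes were measured through a probe set of their own, and 11 of these averaged log2 5 or more. AT4G20860 and AT4G20830 had the second and the third highest averages of the family's probe sets (10.58 and 10.30) and AT4G20820 the tenth (5.33), although levels of different probe sets are not a measure of relative transcript amount. Of the 19 other family genes 7 rose and 0 fell after chitin, 3 and 0 after cellobiose, and 5 and 0 after OGs by limma. Of all probe sets, 5.09 percent were called higher and 5.94 percent lower after chitin. These shares were 1.54 and 0.725 percent after cellobiose, and 1.61 and 1.04 percent after OGs. At an unadjusted p under 0.05, 0, 1 and 0 of the 19 genes were lower. AT4G20820 was thus the only measured family gene called lower against the control, after chitin and after cellobiose. However, 11 of the 22 genes averaged under log2 5, a level near background, where a fall could hardly be seen. The control means of AT1G26380, AT1G26420 and AT5G44400 were also under 5, at 4.00, 4.03 and 4.93. The absence of other falls therefore says little about these genes. The median change of the 22 genes was 0.28, 0.11 and 0.11, against -0.025, -0.00074 and -0.010 over all probe sets.

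After chitin the rises of AT1G26380, an oxidase of indole cyanogenic metabolism, and of AT1G26420 exceeded that of AT4G20830 even as lower bounds. AT1G26380 rose by at least 4.32 after chitin, 0.44 after cellobiose and 0.91 after OGs, with values under 5 raised to 5, and AT1G26420 by at least 3.38, 0.25 and 1.31. AT1G26410 rose by at least 1.38 after chitin and was not called after cellobiose or OGs. These genes were near background on the control arrays, whereas AT4G20830 and AT4G20860 were already bright there. Among the other family genes called, AT5G44380 rose by 0.70, 0.43 and 0.45 after chitin, cellobiose and OGs. AT1G30700 rose by 0.76 after chitin and 0.64 after OGs, and AT5G44390 by 0.65 and 0.80. AT2G34810 and AT1G30760, which averaged 7.88 and 7.43 against 6.94 for AT5G44390, were not called after any elicitor. AT2G34810 differed from the control by -0.28, 0.24 and -0.21 after chitin, cellobiose and OGs, and AT1G30760 by 0.73, 0.87 and 0.10. AT1G26390 was also called after chitin, with both group means under 5, so no size is given.

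Chitin exceeded cellobiose for AT1G26380, AT1G26420, AT1G26410 and AT1G30700 as well, so that 6 of 22 family genes were called higher and 0 lower. Over all 22746 probe sets, 667 (2.93 percent) were called higher and 572 lower in this comparison. OGs were lower than chitin for AT1G26380 (-3.41), AT1G26420 (-2.07) and AT1G26410 (at least 1.38 lower) beside the 2 members. Between OGs and cellobiose, AT1G26420 was higher after OGs by 1.06 and AT5G44400 was lower by at least 0.54.

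**Figure D4:**
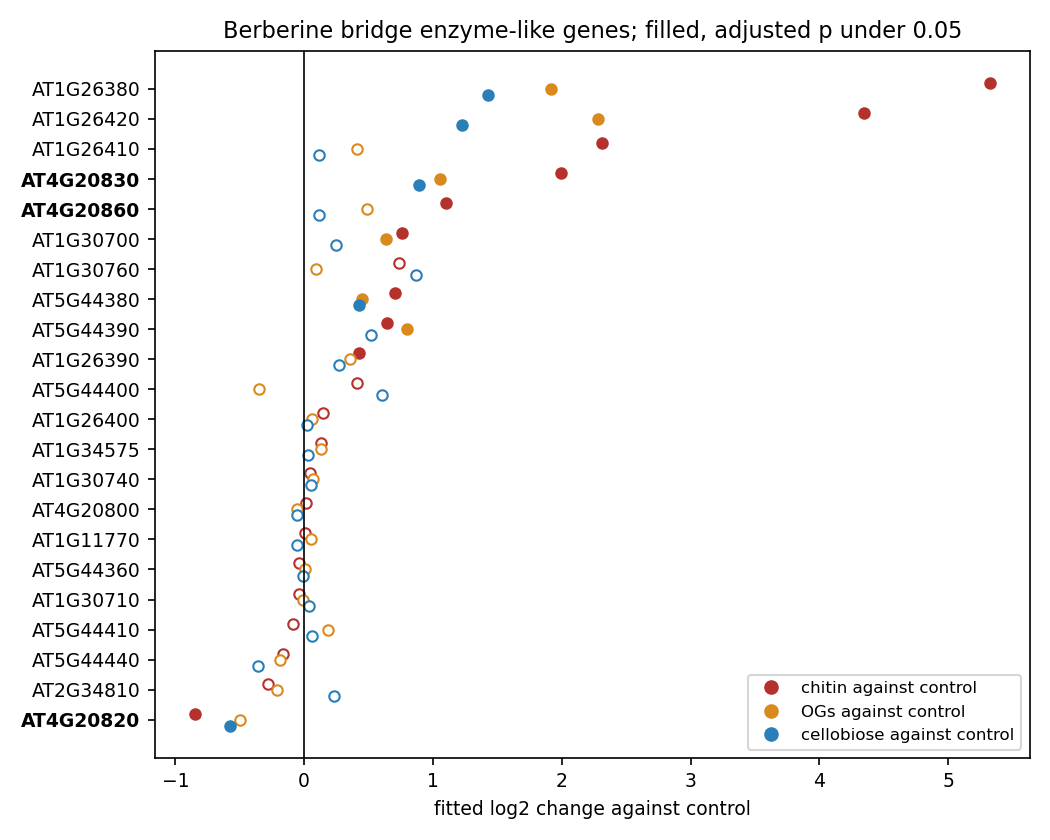
Fitted log2 change against the control (horizontal axis) of the 22 measured berberine bridge enzyme-like genes, ordered by their change after chitin, with the 3 genes of interest in bold; filled points passed an adjusted p under 0.05. AT4G20820 has the lowest value after each elicitor, at -0.85, -0.50 and -0.57 after chitin, OGs and cellobiose, and the changes after chitin reach 5.32 for AT1G26380.

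Beside OGOX1 and CELLOX, the family genes known to encode oxidases of OGs are AT4G20840, AT1G11770 and AT1G01980. AT1G11770 averaged 3.76, a level near background, and its differences from the control were 0.01, -0.05 and 0.05 after chitin, cellobiose and OGs. AT4G20840 and AT1G01980 had no probe set of their own here. Probe set 254431_at, which the annotation assigns to AT4G20840 and AT4G20830 together and which is therefore no member, read 7.10, 6.95 and 6.88 on the control arrays and 6.81, 6.57 and 6.92 after chitin. Its differences from the control were -0.21 (adjusted p = 0.209) after chitin, -0.32 (0.118) after cellobiose and 0.04 (0.903) after OGs, none of them called, while the probe set of AT4G20830 alone rose after each elicitor.

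In the order of protein-coding genes along chromosome 4 in the RefSeq annotation of TAIR10.1, AT4G20820 and AT4G20830 are direct neighbours, and AT4G20835, AT4G20840 and TPP2 lie between AT4G20830 and AT4G20860. TPP2, which encodes tripeptidyl peptidase II, differed from the control by 0.08, -0.04 and 0.04 after chitin, cellobiose and OGs, with 0 of the 3 differences called. The family gene AT4G20800, on the far side of AT4G20820, averaged 3.77 and differed by 0.01 after chitin. Of the 5 listed neighbours measured, CML42, which encodes a calmodulin-like protein, was the 1 called after chitin, at 1.08 ± 0.12 (SE, adjusted p = 0.000250), and 0 were called after cellobiose or OGs by limma, with 0 and 1 at an unadjusted p under 0.05. Over all probe sets, 5.09 percent were called higher and 5.94 percent lower after chitin. The shares were 1.54 and 0.725 percent after cellobiose, and 1.61 and 1.04 percent after OGs. After OGs 16.6 percent had an unadjusted p under 0.05. With 5 genes, these counts do not set the neighbours apart.

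Other genes of wall fragment sensing were measured only in part. Of 6 genes of cellodextrin release and sensing, AT1G56145, the receptor kinase for cello-oligomers, was the 1 measured, and it rose by 0.80 ± 0.09 after chitin, 0.44 ± 0.09 after cellobiose and 0.59 ± 0.09 after OGs (SE, adjusted p = 0.000313, 0.0401 and 0.0105). Of 12 genes of pectin fragment release and sensing 2 were measured, the receptor kinase gene FER and the polygalacturonase gene ADPG1. After any elicitor 0 were called, with 0 also at an unadjusted p under 0.05. FER averaged 10.72 and differed from the control by 0.02, -0.08 and -0.05 after chitin, cellobiose and OGs. ADPG1 averaged 3.77, a level near background, so its differences of -0.13 to -0.02 do not show whether it changed. Of 5 chitin sensing genes BIK1, a kinase that acts below the receptor, was measured and rose after chitin by 0.45. Of 11 genes that make or remove hydrogen peroxide the secreted peroxidase AT5G64120 was measured, and it rose by 0.69, 0.60 and 0.57.

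The genes whose log2 values ran most like each member were sought by Pearson's r over the 12 arrays among 7981 other probe sets with 1 gene and a mean of at least log2 5. The arrays share 4 treatment groups, so a high r largely describes group levels. For AT4G20830 they were AT2G23680 (r = 0.988), CYP71B6 (0.983), a cytochrome P450 of indole metabolism, and AT1G26420 (0.974) of its own family. For AT4G20860 they were AT1G76700 (0.957), AT1G55450 (0.957) and AT5G04020 (0.956), whose differences after cellobiose were 0.01, 0.09 and 0.05. For AT4G20820 they were AT1G73120 (0.924), AT3G07720 (0.921) and AT5G38820 (0.921), which changed by -2.73, -1.65 and -2.07 after chitin. AT4G20830 and AT4G20860 had an r of 0.878 with each other, rank 146 from the highest of the 7981 probe sets compared with AT4G20830. AT4G20820 had -0.922 with AT4G20830 and -0.653 with AT4G20860, ranks 7971 and 7472 of those compared with AT4G20820.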

How the data were processed

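The deposited table held log2 probe set intensities, made by the authors with GCRMA per the series design text and with Affymetrix Expression Console per the submitters' processing notes; which of them made it, and in which version, is not given in the sources used here. Values had no missing entries and array medians of 6.30 to 6.41, which fits a log2 scale. Depending on the method, such normalization can compress differences among dim probe sets, and it would hide a shift of all transcripts. The number of arrays limits the precision.

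After 64 control probe sets were left out of 22810, the other 22746 were tested with no brightness filter. The array annotation paired 13513 with 1 gene and 503 with several, and 8730 are unnamed here. One limma model (3.58.1, in R 4.3.3; lmFit and eBayes) held all 12 arrays, the 4 groups and a block for replicate number, as the design text averages ratios of sample pairs, with 6 residual degrees of freedom. P-values were Benjamini-Hochberg adjusted over all probe sets in each of 6 contrasts. On simulated data for chitin against control with 22746 probe sets, 66 percent of changes of 0.5 and 100 percent of changes of 1 were called. The simulated noise was independent between probe sets, with no replicate effects and 50 probe sets changed at each size. Shares on real arrays can therefore differ. Permutation tests used Python 3.11.15 and numpy 2.4.6.

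The members and gene lists were chosen with earlier results of these data known. Named were the 3 members, in each list up to 4 called genes with the smallest adjusted p (all called family genes), the 3 genes most alike to each member, and measured neighbours. AT1G11770, FER, ADPG1 and the shared probe set were named after their values were seen. Alternatives were no block, 2 groups alone, median centring, quantile normalization, a brightness filter, an intensity trend and each array left out; raising values to log2 5 was added after the data had been seen.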

Additional observations from a re-analysis of the deposited data

How the results depend on the processing

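Of the 21 member results (3 genes in 6 comparisons and the test over 4 groups), all kept their direction and their side of the threshold after median centring, with the brightness filter and, for the 18 comparisons, with only the 2 groups fitted. The difference of AT4G20860 after OGs passed the threshold without the replicate block (0.48, adjusted p = 0.0344), with the intensity trend (0.48, adjusted p = 0.0338) and after quantile normalization (0.54, adjusted p = 0.0487); the cause was not tested, and the other 20 results kept their side under each. Deviations from group means correlated by -0.23 to 0.25 between arrays of the same replicate number, over 0.1 in 6 of 18 pairs, so the numbers themselves do not show a pairing. Over each array left out, AT4G20820 ranged from -0.72 to -0.48 for cellobiose against control, from -0.036 to 0.22 for OGs against cellobiose, from -0.37 to -0.13 for chitin against cellobiose and from 0.24 to 0.47 for OGs against chitin, AT4G20830 from 0.78 to 1.01 for cellobiose against control and from 0.0099 to 0.30 for OGs against cellobiose, and AT4G20860 from 0.21 to 0.50 for OGs against cellobiose, from -0.66 to -0.56 for OGs against chitin, 0.42 to 0.59 for OGs against control and -0.013 to 0.28 for cellobiose against control. With 1 replicate number left out, adjusted p for the difference in response was 0.0625 to 0.125 for AT4G20820 against either other gene. For AT4G20860 against AT4G20830 it was 0.0833 without replicate 1, 0.292 without replicate 2 and 0.208 without replicate 3. The permutations could then give no p under 0.0417 for a pair.

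Probe sets called over the whole table went from 2507 to 1088 for chitin against control and from 603 to 303 for OGs against control with only these groups fitted. With an array left out they were 1540 to 2640 for chitin against control, 138 to 583 of a main 516 for cellobiose against control, 250 to 425 for OGs against control, 456 to 834 of 813 for OGs against chitin, 153 to 227 of 299 for OGs against cellobiose and 625 to 1200 of 1239 for chitin against cellobiose. Median centring turned OGs against cellobiose from 129 higher and 170 lower to 186 and 146.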
